A study of Mus musculus with 9 samples.

Results

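The nuclear-encoded oxidative phosphorylation genes of the mouse retina were followed across 9 bulk RNA sequencing libraries. The members are the protein-coding genes named Nduf (a, b, c, s or v with a number), Sdha to Sdhd, Uqcr, Cox4 to Cox8 or Atp5, without Ndufa4l2, that had at least 90 counts summed over the libraries. Of 26683 genes in the table, 87 had such a name and 85 reached the minimum: 40 of complex I, 4 of complex II, 8 of complex III, 16 of complex IV and 17 of complex V. Cox7b2 with 3 counts and Cox8c with 1 count, both isoforms best known from testis, fell below it. The members were chosen by name and total count, with earlier results of these data known. Cox6a2 (105 counts) reached the minimum only through its higher counts in PBS libraries. Ndufb4c (91 counts) did so only through PBS 3, with 31 counts there against 2 in PBS 1 and 11 in PBS 2. The pattern leaves out a few subunits with other names, among them Cyc1 and Ndufab1.

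Whole retinas were taken at postnatal day 17, with 3 libraries in each group. The Gel group had oxygen-induced retinopathy (OIR: newborn mice breathe high oxygen, retinal vessels are lost, and the return to room air leaves the tissue hypoxic and is followed by abnormal vessel growth) and received the PCC1/PHCF hydrogel into the vitreous at postnatal day 15. The PBS group had OIR and received saline at the same age. The Normoxic group stayed in room air, and no injection is named for it. No group received a hydrogel without PCC1, so the drug and its carrier cannot be told apart. Strain and sex are not given in the sources used here, and the labels do not say that replicates are separate animals, so p-values measure only the spread between these samples.

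Oxidative phosphorylation passes electrons from NADH (complex I) and succinate (complex II) through complex III to complex IV, which reduces oxygen, and the proton gradient built on the way drives the ATP synthase, complex V. Most subunits are made from nuclear genes and imported, while a small core is encoded in mitochondrial DNA. Photoreceptors pack mitochondria into their inner segments and are among the largest oxygen users of the body. Low oxygen acts on the chain through the transcription factor HIF, which in mammalian cells is known to favour the alternative subunit COX4I2 over COX4I1 and to induce NDUFA4L2, a relative of NDUFA4.

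The promoters of 4 members are shown because they carry letters that 2 families of regulators of mitochondrial genes, NRF1 and the ETS factor GABP, or HIF are known to bind, and because these genes span the range of the results: Ndufb1 and Atp5k were among the members with the largest differences, and Sdha and Uqcrc1 among those with the smallest. The windows hold 300 bases, 250 before and 50 after the start of the gene, from RefSeq on GRCm38.p6, read 5′ to 3′ on the strand of the gene. Capitals mark GCATGCG (NRF1 core), CCGGAAG (ETS core) and ACGTG (HIF core), searched on both strands. The capitals CGCATGCG hold the NRF1 core once on each strand, overlapping.
Ndufb1 chr12:101975689-101975988 (- strand): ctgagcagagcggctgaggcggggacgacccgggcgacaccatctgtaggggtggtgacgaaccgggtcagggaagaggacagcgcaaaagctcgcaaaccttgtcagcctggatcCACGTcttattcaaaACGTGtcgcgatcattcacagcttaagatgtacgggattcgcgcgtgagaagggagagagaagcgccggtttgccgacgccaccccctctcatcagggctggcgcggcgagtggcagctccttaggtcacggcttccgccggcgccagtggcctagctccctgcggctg
Atp5k chr5:108434350-108434649 (- strand): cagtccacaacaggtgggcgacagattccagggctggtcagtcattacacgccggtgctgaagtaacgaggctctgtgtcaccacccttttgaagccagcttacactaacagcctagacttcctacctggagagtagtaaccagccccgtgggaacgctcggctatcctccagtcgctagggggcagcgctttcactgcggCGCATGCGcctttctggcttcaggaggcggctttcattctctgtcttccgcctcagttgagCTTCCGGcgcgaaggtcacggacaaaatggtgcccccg
Sdha chr13:74350191-74350490 (- strand): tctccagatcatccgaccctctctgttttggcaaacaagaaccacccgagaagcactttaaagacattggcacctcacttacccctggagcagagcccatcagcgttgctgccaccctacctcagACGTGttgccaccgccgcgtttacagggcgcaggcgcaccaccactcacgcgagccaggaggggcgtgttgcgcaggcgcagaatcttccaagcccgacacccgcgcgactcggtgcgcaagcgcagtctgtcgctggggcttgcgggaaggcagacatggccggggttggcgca
Uqcrc1 chr9:108936398-108936697 (+ strand): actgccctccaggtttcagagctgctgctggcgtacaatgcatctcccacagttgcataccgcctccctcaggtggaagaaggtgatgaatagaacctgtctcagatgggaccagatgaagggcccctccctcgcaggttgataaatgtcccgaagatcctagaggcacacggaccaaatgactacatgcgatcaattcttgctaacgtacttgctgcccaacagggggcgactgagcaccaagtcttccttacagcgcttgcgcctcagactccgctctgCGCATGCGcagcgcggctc

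Of the 85 members, 69 had a promoter in the RefSeq table and 16 did not, with Cox4i1 and Cox4i2 among those without one. The NRF1 core stood in 11 of the 69 (15.9%), against 5.96% of 14169 promoters of protein-coding genes. The ETS core stood in 17 (24.6%), against 15.6%, and the HIF core in 18 (26.1%), against 26.2%. Both the NRF1 and the ETS core stood in 6 members, and at least one of them in 22. These 22 had a median log2 fold change of 0.38 in PBS versus Normoxic, and the 47 with neither had 0.39. The medians of both sets were close, and a match describes the letters of the window only.

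Total counts ran from 29324142 to 35663470 per library. Counts are given as CPM (counts per 1e+06 of the library total), so 1 CPM rests on about 30 counts, and levels of different genes are compared in FPKM, which also divides by gene length. Library PBS 3 stood apart: across all tested genes its values fell with gene length relative to the other PBS libraries (Spearman -0.49 over 17362 genes, which are not independent). The same coefficient was negative in Gel 2 (-0.29) and Gel 3 (-0.20), positive in Gel 1 (0.32), PBS 1 (0.32) and PBS 2 (0.41), and near 0 in the Normoxic libraries (-0.05 to 0.03). Each library was set against the others of its own group, so PBS 3 was part of the reference for PBS 1 and PBS 2. Their positive values therefore do not show an opposite trend of their own, and the same limit holds for Gel 1 beside Gel 2 and 3. The members are short genes, with a median length of 754 bases against 3650 for all tested genes, so the group medians and the members described at length are also given without PBS 3. Rod markers were abundant in every library and none of the 19 was at 0, as the retina label states.

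In the Normoxic retina the ATP synthase catalytic subunit Atp5b had the highest level of all members, 600 ± 11 FPKM (SD, n = 3). The highest member of complex IV was Cox4i1 at 405 ± 10 FPKM, the common form of the regulatory subunit 4. Ndufa4, named for complex I and since known as a subunit of complex IV, led its name group with 322 ± 23 FPKM. Uqcrh, the hinge protein of complex III, reached 189 ± 6.3 FPKM, and Sdha, the flavoprotein that oxidises succinate, 118 ± 4.2 FPKM. The median level was 137 FPKM in complex IV, 104 in complex V, 89.6 in complex III, 68.2 in complex II and 68.0 in complex I. The lowest members above a mean of 1 CPM were Cox7a1 at 2.35 ± 0.51 FPKM and Ndufb4b at 3.47 ± 0.75 FPKM, while Cox6a2, Cox8b, Ndufb4c and Ndufs6b averaged under 1 CPM. Ndufb4b, Ndufb4c and Ndufs6b are near copies of Ndufb4 and Ndufs6, and how the authors' counting shared reads between such copies was not given in the sources used here, so their values are uncertain.

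Summed over the 85 members, the RNA for oxidative phosphorylation was nearly the same in PBS 1, PBS 2 and the Normoxic retinas, highest in PBS 3 and, to a lesser degree, also higher in Gel 2 and 3. The sums were 7726, 10820 and 10474 CPM in Gel 1, 2 and 3, then 8437, 8695 and 14873 CPM in PBS 1, 2 and 3, and 8964, 8785 and 8735 CPM in Normoxic 1, 2 and 3. PBS 3 held 1.74 times the mean of the other PBS libraries and 1.68 times the Normoxic mean, and PBS 1 and 2 together 0.970 times the Normoxic mean. Gel 2 and 3 averaged 1.21 times the Normoxic mean, whereas Gel 1 lay below all Normoxic libraries at 0.875 times. Group means were 9674 ± 1695 CPM in Gel, 10668 ± 3644 in PBS and 8828 ± 120 in Normoxic (SD, n = 3 each), and 8566 ± 182 in PBS without PBS 3 (n = 2). The differences between group means were smaller than the spread within PBS, and in whole retina fewer cells of a type and less RNA per cell cannot be told apart.

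In each of the 5 complexes PBS 3 was the highest library and Gel 1 the lowest, and complex II varied least. Complex I summed to 2388, 3384 and 3279 CPM in Gel, 2630, 2693 and 4946 CPM in PBS, and 2786, 2714 and 2679 CPM in Normoxic. Complex II summed to 494, 602 and 615 CPM in Gel, 544, 545 and 706 CPM in PBS, and 560, 549 and 552 CPM in Normoxic. Complex II therefore made up 4.75% of the members' RNA in PBS 3 and between 5.57% and 6.45% elsewhere. Most of its sum was Sdha, with a Normoxic mean of 337 CPM against 554 CPM for the complex. PBS 3 over the mean of PBS 1 and 2 was 1.14 for Sdha, against 1.84 for Sdhb, 1.36 for Sdhc and 1.45 for Sdhd. Complex IV, the oxygen-using enzyme, summed to 1222, 1872 and 1761 CPM in Gel, 1349, 1418 and 2744 CPM in PBS, and 1438, 1455 and 1415 CPM in Normoxic.

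**Figure D1:**
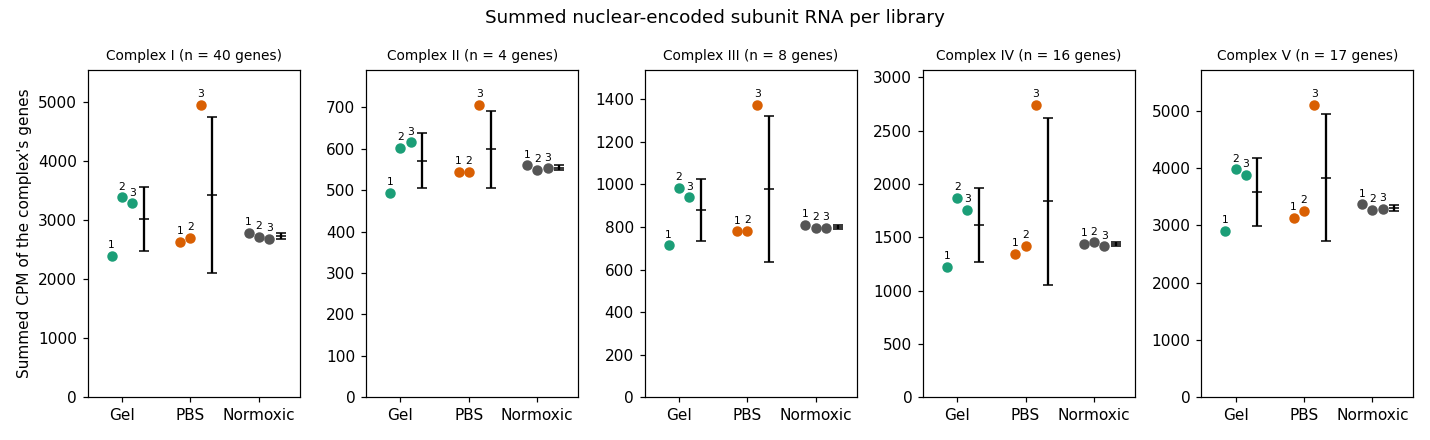
Summed CPM of the members of each complex, 1 point per library (numbers are replicates), with mean and SD beside the points (n = 3) and axes from 0. PBS 3 is the highest library in every complex, PBS 1 and 2 lie close to the Normoxic libraries, and Gel 1 is the lowest library.

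PBS versus Normoxic asks what oxygen-induced retinopathy, together with a saline injection, changes at this age. Most members were somewhat higher in PBS, by a median log2 fold change of 0.39 against 0.01 over all tested genes, and 83 of 85 lay above 0, against 51.3% of all genes. None of the 85 was called by the edgeR quasi-likelihood test (adjusted p under 0.05 over all tested genes), against 6.34% of all genes. At an unadjusted p under 0.05, 6 members were higher and 0 lower (12.3% of all genes were higher at that level), DESeq2 called 1 and limma-voom 0. Without PBS 3 the median was -0.06, with 25 of 85 above 0 (49.3% of all genes were) and again 0 called, against 5.95% of all genes. The direction of the group difference therefore rested on that library. The 3 PBS libraries lay above the 3 Normoxic libraries without overlap for 7 members (14.9% of all genes did so), and 0 lay below (14.1% did so).

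**Figure D2:**
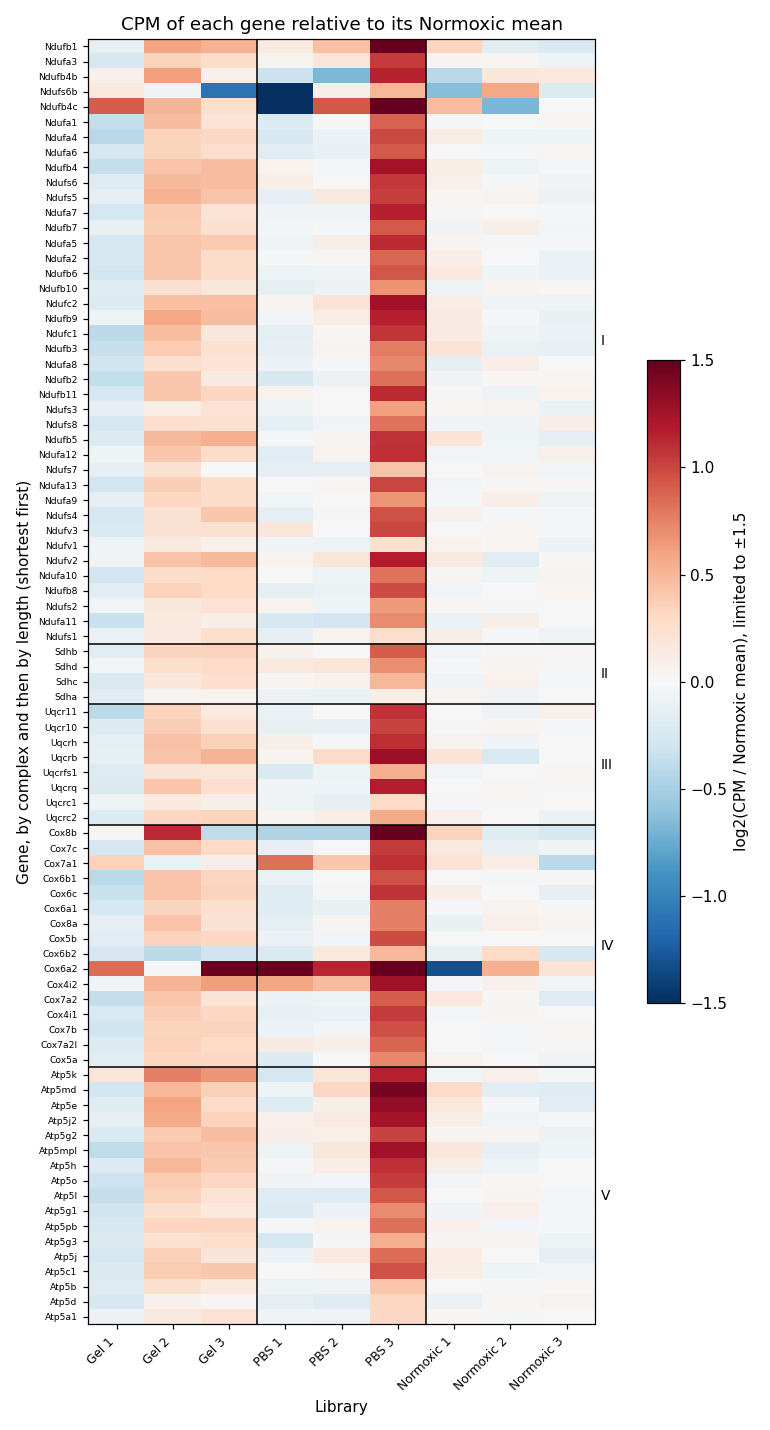
Log2 ratio of each member's CPM to its Normoxic mean (rows, by complex and then from short to long genes) in each library (columns), with the colour scale limited to ±1.5. The PBS 3 column is red in nearly every row and palest for Sdha, Ndufv1 and Ndufs1, PBS 1 and 2 stay close to white, and Gel 1 is pale blue beside the pale red of Gel 2 and 3.

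Library by library, the median member stood at a log2 ratio to the Normoxic mean of -0.21, 0.37 and 0.28 in Gel 1, 2 and 3 and of -0.08, 0.01 and 0.96 in PBS 1, 2 and 3. PBS 3 was the highest of the 9 libraries for 84 of 85 members and Gel 1 the lowest for 62. In Gel 1, 73 members lay below all 3 Normoxic libraries, while in Gel 2 and 3 together 74 lay above all of them. These counts were made for the members only, so the share of all tested genes that do the same is not given. By the median member, the hydrogel group held libraries on both sides of Normoxic.

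Among the 40 members of complex I, the proton-pumping NADH dehydrogenase, 39 had a log2 fold change above 0 in PBS versus Normoxic, with a median of 0.38 and none called. Ndufb1, an accessory subunit of the membrane arm, had 16.1, 26.5 and 25.3 CPM in Gel, 19.3, 24.0 and 54.3 CPM in PBS, and 21.96, 15.8 and 14.96 CPM in Normoxic. PBS 1 lay within the Normoxic range and PBS 3 far above it, and the log2 fold change of 0.92 ± 0.36 (SE) was not past the threshold (edgeR adjusted p = 0.169). Without PBS 3 it was 0.29, and 9 of the 40 members lay above 0, with a median of -0.05. The catalytic core subunits Ndufs1 and Ndufv1 differed less. Ndufs1, the largest iron-sulfur subunit, had 86.1, 102 and 110 CPM in Gel, 84.7, 95.3 and 111 CPM in PBS, and 97.9, 91.2 and 87.6 CPM in Normoxic. Ndufv1, which binds NADH, had 170, 198 and 190 CPM in Gel, 173, 170 and 212 CPM in PBS, and 187, 184 and 169 CPM in Normoxic. For both genes the 3 groups overlapped. Another core subunit, Ndufv2, did not differ less, at 62.6, 68.3 and 136 CPM in PBS against 53.8 to 66.4 CPM in Normoxic. The log2 fold change of Ndufv2 was 0.59 ± 0.28 (edgeR adjusted p = 0.252), and 0.10 without PBS 3.

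Complex II, which also belongs to the citric acid cycle and is built from nuclear genes alone, differed between its subunits. Sdha had 301, 347 and 351 CPM in Gel, 318, 316 and 360 CPM in PBS, and 350, 325 and 337 CPM in Normoxic, and its log2 fold change in PBS versus Normoxic was -0.01 ± 0.11 (edgeR adjusted p = 0.954). It had the smallest excess in PBS 3 of all members, 1.14 times the mean of PBS 1 and 2. Sdhd, a membrane anchor of the complex, had 50.5, 62.7 and 63.6 CPM in Gel, 57.5, 58.9 and 84.5 CPM in PBS, and 51.3, 53.6 and 51.4 CPM in Normoxic. Every PBS library lay above every Normoxic one for Sdhd, yet its log2 fold change of 0.38 ± 0.17 did not pass (edgeR adjusted p = 0.218) and was 0.14 without PBS 3 (adjusted p = 0.591). Of the 4 members, 3 lay above 0 without PBS 3, with a median of 0.03. Sdhb, the iron-sulfur subunit, reached 118 CPM in PBS 3 against 63.2 to 65.5 CPM in the other PBS libraries and 61.2 to 63.6 CPM in Normoxic. Sdhc, the other anchor, overlapped between PBS (104 to 143 CPM) and Normoxic (97.9 to 106 CPM).

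In complex III, which hands electrons to cytochrome c, all 8 members had a log2 fold change above 0 in PBS versus Normoxic, with a median of 0.43. Without PBS 3, 3 of the 8 lay above 0 and the median was -0.07. Uqcrb, which lies near the quinone site, had 34.1, 49.9 and 53.0 CPM in Gel, 38.6, 45.3 and 90.3 CPM in PBS, and 42.4, 31.8 and 37.4 CPM in Normoxic (log2 fold change 0.67 ± 0.30, edgeR adjusted p = 0.225; 0.16 without PBS 3). Uqcrc1, a core protein, had 231, 268 and 259 CPM in Gel, 233, 223 and 299 CPM in PBS, and 241, 246 and 243 CPM in Normoxic. PBS 1 and 2 lay below the Normoxic libraries for Uqcrc1 and PBS 3 above them, so its log2 fold change was 0.07 ± 0.14, and -0.11 without PBS 3. Uqcrfs1, the Rieske iron-sulfur protein, followed the same order, at 68.6, 75.9 and 117 CPM in PBS against 78.0 to 82.0 CPM in Normoxic. Cyc1, the cytochrome of the complex and not matched by the name pattern, had a log2 fold change of 0.05 ± 0.13.

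Complex IV held the member nearest to a call, although without PBS 3 only 4 of its 16 members lay above 0 in PBS versus Normoxic (median -0.08). Cox4i2 (Entrez 84682), the subunit 4 form known to be favoured in low oxygen, had 27.6, 40.9 and 44.2 CPM in Gel, 43.0, 39.9 and 68.6 CPM in PBS, and 28.2, 29.9 and 27.8 CPM in Normoxic. All PBS libraries lay above all Normoxic libraries, while Gel 1 sat just below the Normoxic level and Gel 2 and 3 near PBS 1 and 2. The log2 fold change in PBS versus Normoxic was 0.84 ± 0.23 (edgeR adjusted p = 0.0560), just short of the threshold, and 0.52 without PBS 3 (adjusted p = 0.0873). Over 22 alternative settings edgeR, DESeq2 or limma adjusted p ran from 0.00863 to 0.173, and 9 of them called the gene, among them the fits without PBS 2 (0.0327) and without Gel 1 (0.0323). With the length trend of each library removed the log2 fold change was 0.52 and edgeR adjusted p = 0.0108.

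Cox4i1 (Entrez 12857), the common form, followed the other members, with 265, 400 and 383 CPM in Gel, 286, 289 and 639 CPM in PBS, and 303, 319 and 308 CPM in Normoxic. PBS 1 and 2 lay below Normoxic and PBS 3 above it for Cox4i1. The isoforms therefore went in opposite directions in PBS 1 and 2, while both were above Normoxic in PBS 3. Per 100 FPKM of Cox4i1, Cox4i2 stood at 10.9, 10.7 and 12.1 FPKM in Gel, 15.8, 14.5 and 11.3 FPKM in PBS, and 9.77, 9.85 and 9.49 FPKM in Normoxic. The ratio was higher in every PBS and every Gel library than in every Normoxic one, and Gel and PBS overlapped because PBS 3 had the lowest PBS value. No test was run on these ratios, since 3 libraries against 3 cannot give an exact permutation p below 0.1.

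Cox4i2 is also known as a gene of pericytes, the contractile cells on capillaries. Of 12 mural cell markers, a list added after the values of Cox4i2 were seen, 5 rose in PBS versus Normoxic (Acta2, Tagln, Rgs5, Higd1b and Kcnj8) and none fell, by the edgeR test, though leaving out Normoxic 1 or Normoxic 2 ended the call of Kcnj8 (at most 0.103 for adjusted p). Their summed level was 813 to 1074 CPM in Gel, 1012 to 1404 CPM in PBS and 714 to 795 CPM in Normoxic, and none was at 0. Of 12 endothelial markers, 6 rose and 1 fell, with sums of 443 to 465 CPM in Gel, 396 to 464 CPM in PBS and 381 to 425 CPM in Normoxic. Over all tested genes 4.31% rose and 2.03% fell in PBS versus Normoxic. The part of vessel cells in the difference of Cox4i2 was not tested.

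Ndufa4l2, left out of the members by rule and known as a gene induced by low oxygen, differed more than Cox4i2 in the same libraries, and the part of vessel cells in it was not tested either. Per 100 FPKM of Ndufa4 it stood at 12.8, 8.16 and 8.68 FPKM in Gel, 33.5, 18.7 and 12.3 FPKM in PBS, and 1.25, 1.68 and 2.19 FPKM in Normoxic. Ndufa4 itself had 120, 204 and 199 CPM in Gel, 135, 150 and 318 CPM in PBS, and 174, 153 and 154 CPM in Normoxic, much the same order of libraries as in the members' sum. Within PBS, both isoform ratios were highest in PBS 1 and lowest in PBS 3.

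**Figure D3:**
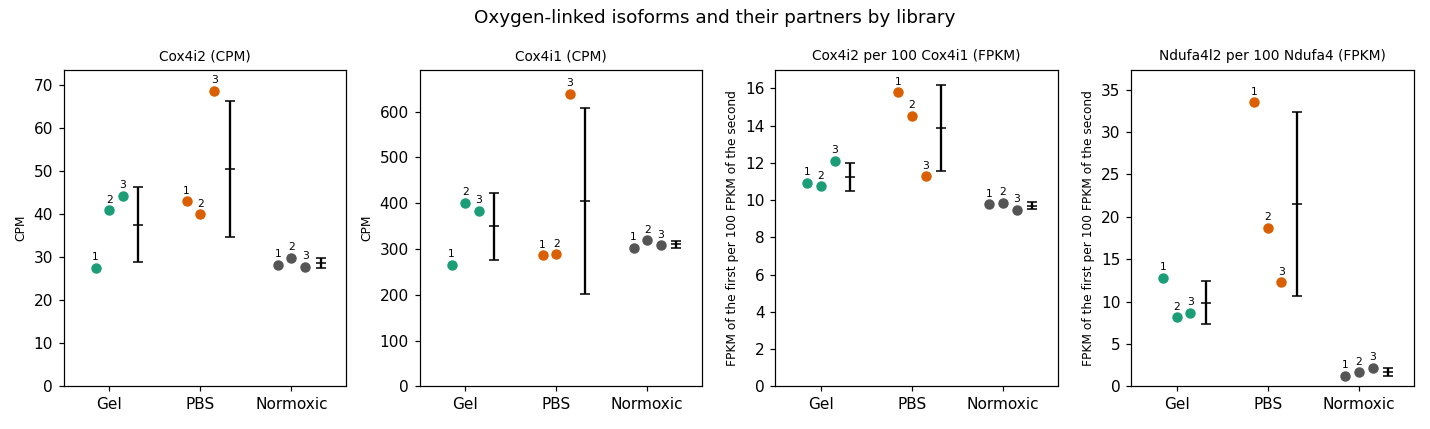
CPM of Cox4i2 and of Cox4i1, and the FPKM of Cox4i2 per 100 of Cox4i1 and of Ndufa4l2 per 100 of Ndufa4, by library (points numbered by replicate) with mean and SD (n = 3). Cox4i1 is highest in PBS 3 and also above Normoxic in Gel 2 and 3 (400 and 383 CPM), whereas Cox4i2 and both ratios are above every Normoxic library in all 3 PBS libraries.

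The forms of complex IV known from heart and skeletal muscle were near the floor of detection. Cox6a2 had 9, 6 and 16 counts in Gel, 20, 11 and 27 counts in PBS, and 2, 8 and 6 counts in Normoxic. Its log2 fold change in PBS versus Normoxic, 1.78 ± 0.58, was the largest of all members and not past the threshold (edgeR adjusted p = 0.101). Cox6a2 reached the minimum total count only through its higher PBS counts, so this rank was partly set by the choice of members. Cox7a1 had 1.38, 1.01 and 1.16 CPM in Gel, 1.91, 1.43 and 2.31 CPM in PBS, and 1.26, 1.17 and 0.817 CPM in Normoxic, with all PBS libraries above the others (log2 fold change 0.82 ± 0.31 versus Normoxic, edgeR adjusted p = 0.156). Cox8b was counted 88 times in PBS 3 and between 15 and 54 times elsewhere. Of 17 skeletal and heart muscle markers, 8 could be tested and 1, Tnnt2, rose in PBS versus Normoxic (4.31% of all tested genes rose). The list summed to 29.0 to 33.7 CPM in Gel, 37.1 to 41.5 CPM in PBS and 28.4 to 32.7 CPM in Normoxic, and its part in these differences was not tested. Per 100 FPKM of the common form, Cox6a2 reached at most 0.415 and Cox7a1 at most 4.96 FPKM in any library. The RNA of each was therefore far below that of Cox6a1 or Cox7a2. The common subunits followed the sum: Cox6a1 had 125, 131 and 240 CPM in PBS against 140 to 148 CPM in Normoxic, and Cox5a 65.3, 75.1 and 124 CPM in PBS against 72.7 to 78.2 CPM in Normoxic.

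All 17 members of complex V had a log2 fold change above 0 in PBS versus Normoxic, with a median of 0.43 and none called, but 6 of them lay above 0 without PBS 3, with a median of -0.05. Atp5b had 988, 1328 and 1256 CPM in Gel, 1069, 1089 and 1502 CPM in PBS, and 1131, 1106 and 1145 CPM in Normoxic, so PBS 1 and 2 lay below Normoxic. The largest log2 fold change of the complex, 0.74 ± 0.35 (edgeR adjusted p = 0.255; 0.12 without PBS 3), was that of Atp5md, a small membrane subunit, at 31.3, 40.4 and 88.6 CPM in PBS against 28.8 to 39.8 CPM in Normoxic. The smallest was that of Atp5d, the delta subunit of the rotor stalk, at 0.03 ± 0.16. Atp5g1, Atp5g2 and Atp5g3 encode the same c-ring protein, the proton-driven rotor. Atp5g2 had 93.0, 91.1 and 174 CPM in PBS against 81.5 to 89.2 CPM in Normoxic, without overlap, while Atp5g1 and Atp5g3 overlapped. Per 100 FPKM of Atp5g3, Atp5g2 stood at 94.2, 106 and 108 FPKM in Gel, 122, 102 and 130 FPKM in PBS, and 94.7, 94.97 and 94.3 FPKM in Normoxic. The Normoxic libraries were nearly equal and every PBS library lay above them. Atp5g2 is the shorter gene (647 against 1396 bases), and the part of gene length in this ratio was not tested.

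Gel versus PBS asks what the PCC1 hydrogel does in diseased eyes, and shares the PBS libraries with the comparison above. The median log2 fold change of the members was -0.20 against -0.01 over all genes, and 6 of 85 lay above 0 (47.3% of all genes did). None was called by edgeR, where 0% of all tested genes were called. At an unadjusted p under 0.05, 2 members were lower and 0 higher (5.54% of all genes in either direction), and DESeq2 and limma-voom called 0. Without PBS 3 the median turned to 0.23, with 81 of 85 above 0 (51.5% of all genes were) and 0 called, against 0.0339% of all genes. The sign of this comparison was therefore that of a single library. Cox6b2, a form best known from testis, and Cox7a1 were the members whose Gel libraries all lay below all PBS libraries (5.15% of all genes did so). Cox6b2 had 6.90, 6.17 and 6.64 CPM in Gel and 7.04, 9.17 and 11.5 CPM in PBS, with 7.60, 10.1 and 6.92 CPM in Normoxic (Gel versus PBS log2 fold change -0.50 ± 0.21, edgeR adjusted p = 0.857; -0.27 without PBS 3). Cox4i2 had a log2 fold change of -0.44 ± 0.23 (edgeR adjusted p = 0.973; -0.11 without PBS 3), and Ndufa4l2 of -1.19 ± 0.19 (edgeR adjusted p = 0.189, called in 4 of 22 alternative settings with adjusted p from 4.93e-05 to 0.749).

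Gel versus Normoxic, which shares the Normoxic libraries with the first comparison, gave a median log2 fold change of 0.17 against 0.00 over all genes, with 80 of 85 members above 0 (50.1% of all genes were). None was called by edgeR, against 1.41% of all genes, none had an unadjusted p under 0.05 (13.2% of all genes did), and DESeq2 and limma-voom called 0. With PBS 3 left out of the shared fit, 80 of 85 were again above 0 (50.5% of all genes were) and 0 were called (4.16% of all genes were). The size of the median rested on the Gel libraries: it was 0.34 without Gel 1, with 83 of 85 above 0, and 0.05 without Gel 2, with 63 above 0. Atp5k, the e subunit that helps ATP synthase form dimers, was the member whose Gel libraries all lay above Normoxic, at 32.01, 47.7 and 44.7 CPM in Gel against 27.4, 29.6 and 27.6 CPM in Normoxic (11.1% of all genes did so). Atp5k had 23.4, 31.9 and 63.0 CPM in PBS, a range that spans the Gel libraries. Its log2 fold change of 0.57 ± 0.31 in Gel versus Normoxic did not pass (edgeR adjusted p = 0.484, 0.0522 when PBS 3 was left out of the shared fit). Cox6b2 was the member below Normoxic without overlap (12.8% of all genes were), at -0.31 ± 0.21 (edgeR adjusted p = 0.580). Cox4i2 had a log2 fold change of 0.40 ± 0.23 (edgeR adjusted p = 0.504), with Gel 1 at the Normoxic level.

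**Figure D4:**
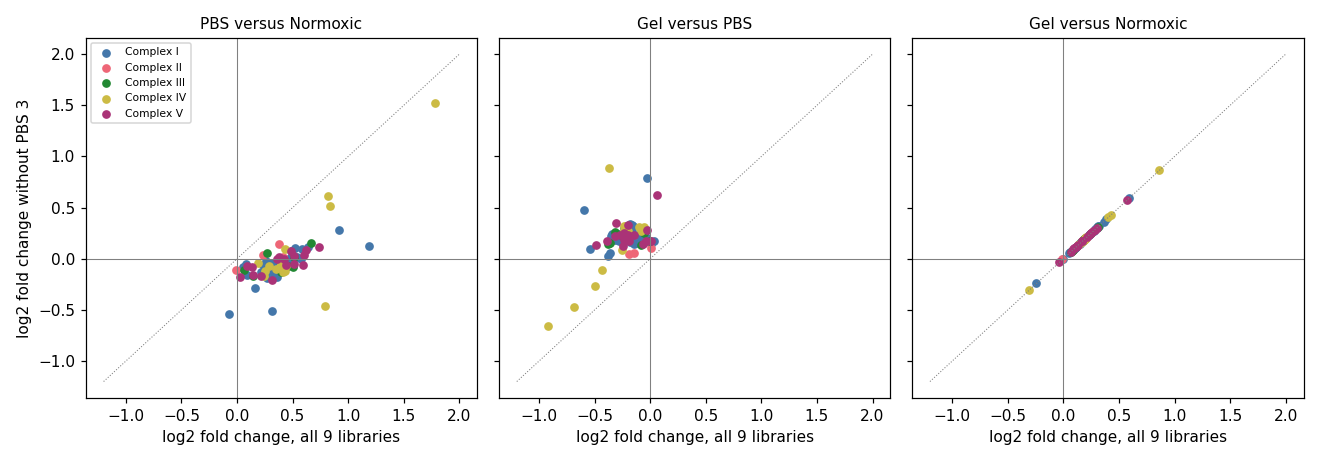
Log2 fold change of each member in the 3 comparisons, from all 9 libraries (horizontal) and without PBS 3 (vertical), coloured by complex, with the line of equality dotted. The cloud drops below 0 for PBS versus Normoxic (median -0.06), moves above 0 for Gel versus PBS (median 0.23) and stays on the line for Gel versus Normoxic.

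The size of the PBS 3 excess followed gene length among the members. All 85 were higher in PBS 3 than in the mean of PBS 1 and 2, by 1.14 times (Sdha) to 4.85 times (Cox8b) and a median of 1.99 times. The share of all tested genes, or of other short genes, that were higher there was not counted. The median was 2.16 times for 30 members under 600 bases, 1.99 for 22 of 600 to 1000 bases, 1.76 for 25 of 1000 to 2000 bases and 1.47 for 8 of 2000 bases and over. The Spearman coefficient between length and this log ratio was -0.60 over the 85 members and -0.48 over all tested genes (genes share the library and are not independent). Gel 2 relative to Normoxic had -0.58 over the members, Gel 3 -0.17, Gel 1 0.04, PBS 1 0.10 and PBS 2 -0.26. With the length trend of each library removed, the members' median log2 fold changes were 0.06 for Gel and 0.07 for PBS relative to Normoxic, and -0.01 for Gel relative to PBS. What sets the trend with length was not tested.

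Several other lists of transcripts were also highest in PBS 3, while bipolar cell markers and regulators of mitochondrial biogenesis were lowest there. Cytosolic ribosomal protein genes summed to 11449, 17214 and 16509 CPM in Gel, 14067, 13560 and 27346 CPM in PBS, and 11394 to 11897 CPM in Normoxic, with a median log2 fold change of 0.72 in PBS versus Normoxic, 0.25 without PBS 3, and 0 of 94 called. The 78 mitochondrial ribosomal protein genes had 0.31, 0.02 without PBS 3, and 0 called. Rod markers summed to 67051 to 83286 CPM in Gel, 68813 to 92954 CPM in PBS, with the highest in PBS 3, and 72244 to 73677 CPM in Normoxic. The median rod marker had a log2 fold change of 0.13, and -0.00 without PBS 3, with 0 of 19 called. Bipolar markers summed to 2356, 2045 and 2067 CPM in Gel, 2091, 2202 and 1800 CPM in PBS, and 2696 to 2729 CPM in Normoxic. The biogenesis regulators summed to 1279, 1161 and 1090 CPM in Gel, 1210, 1161 and 1018 CPM in PBS, and 1359 to 1425 CPM in Normoxic. A large part of that sum was Esrrb, which had the lowest log2 fold change of the list in PBS versus Normoxic, -0.73. The median regulator had 0.00, and -0.01 without PBS 3, with 11 of 20 above 0 and 9 below, so the list did not fall as a whole. The part of these lists in the members' shift was not tested.

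Markers of other cells also differed between PBS and Normoxic by the edgeR test, and their part in the members' values was not tested. Over all tested genes 4.31% rose and 2.03% fell. Of 12 microglia markers, 9 rose, with and without PBS 3, by a median log2 fold change over the 12 of 1.49 and of 1.21 without PBS 3. The complement gene C1qa, for one, had 2.23. They summed to 150 to 204 CPM in Gel, 199 to 312 CPM in PBS and 81.8 to 92.9 CPM in Normoxic. Isl1 and Grik1 were among the bipolar markers that fell, with a median of -0.33 over the list of 13, and of 13 cone markers Gnb3 rose, with a median of 0.35, or 0.19 without PBS 3. Of 12 Muller glia markers Vim rose and Aqp4 and Kcnj10 fell, with sums of 5527 to 7266 CPM in Gel, 5421 to 7217 CPM in PBS and 5971 to 6470 CPM in Normoxic. None of 12 pigment epithelium markers was called by edgeR, 3 had an unadjusted p under 0.05, and their sums were 608 to 832 CPM in Gel, 409 to 903 CPM in PBS (highest in PBS 3) and 593 to 695 CPM in Normoxic. Of 5 red blood cell genes tested Hbb-bs rose, with sums of 31.3 to 46.1 CPM in Gel, 46.6 to 198 CPM in PBS and 46.1 to 50.6 CPM in Normoxic. Of 6 lens genes tested Cryab rose and Bfsp2 fell, with sums of 62.0 to 68.8 CPM in Gel, 54.4 to 104 CPM in PBS and 40.5 to 80.7 CPM in Normoxic. Leaving out single Normoxic libraries ended the calls of Gnb3, Isl1 and Cryab, and the calls of Kcnj10 and Hbb-bs were lost in 17 and 13 of 22 alternative settings, also without PBS 3. No marker on these lists was at 0 in every library.

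**Figure D5:**
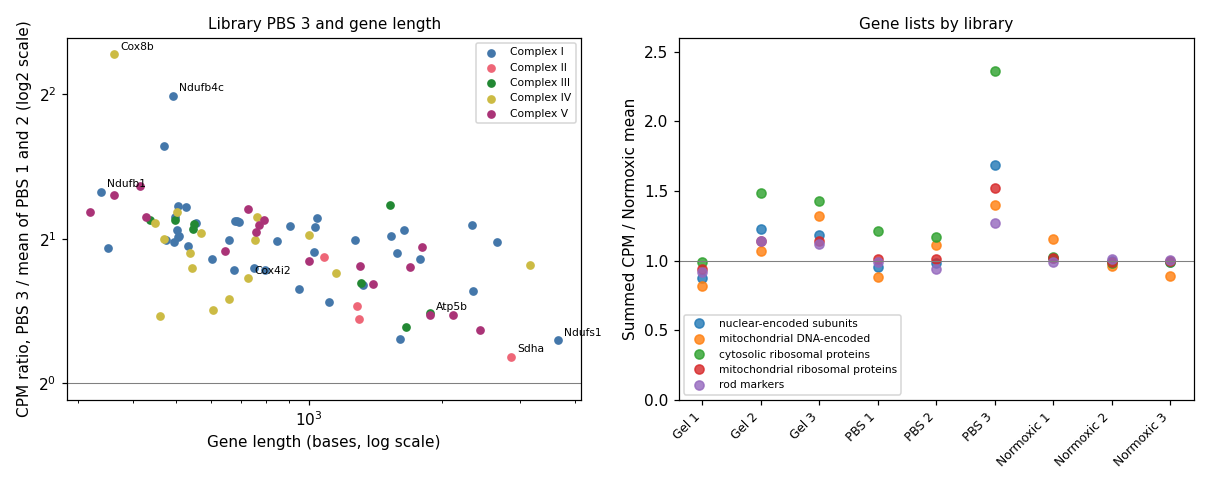
Left, the CPM ratio of PBS 3 to the mean of PBS 1 and 2 (log2 axis) against gene length (log axis) for the 85 members, coloured by complex; right, the summed CPM of 5 gene lists in each library relative to the Normoxic mean. The median ratio declines from 2.16 under 600 bases to 1.47 at 2000 bases and over, with a wide spread among short genes. The highest ratio, 4.85 for Cox8b, rests on 16 and 15 counts in PBS 1 and 2, and the lowest is 1.14 for Sdha. All 5 lists are highest in PBS 3, the cytosolic ribosomal proteins most.

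The subunits encoded in mitochondrial DNA are made in the organelle and join the nuclear-encoded ones in complexes I, III, IV and V. They summed to 9166, 11943 and 14788 CPM in Gel, 9881, 12458 and 15653 CPM in PBS, and 12909, 10770 and 9942 CPM in Normoxic, and the groups overlapped. Of 13 genes 12 could be tested and none was called in any comparison, with a median log2 fold change of 0.15 in PBS versus Normoxic and -0.01 without PBS 3. Of 54 assembly factors, the chaperones that build the complexes, 51 were tested and 1 rose in PBS versus Normoxic (4.31% of all tested genes rose). This was Ndufaf6, a complex I assembly factor, at 8.57, 7.39 and 7.26 CPM in PBS against 4.71, 5.38 and 4.74 CPM in Normoxic (log2 fold change 0.66 ± 0.16, edgeR adjusted p = 0.0310). The call of Ndufaf6 was lost in 8 of 22 alternative settings (adjusted p up to 0.116), among them leaving out any Normoxic library, PBS 1 or Gel 2. None of 19 citric acid cycle genes was called, with a median of 0.09 and -0.08 without PBS 3.

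Of 20 regulators of mitochondrial biogenesis, none rose and 1 fell in PBS versus Normoxic (4.31% of all tested genes rose and 2.03% fell). Esrrb, an orphan nuclear receptor that drives energy genes in rods, had 321, 330 and 268 CPM in Gel, 349, 284 and 293 CPM in PBS, and 493, 512 and 540 CPM in Normoxic. All 6 OIR libraries lay below all Normoxic libraries, with a log2 fold change of -0.73 ± 0.13 in PBS versus Normoxic (edgeR adjusted p = 0.00698) and of -0.74 ± 0.13 in Gel versus Normoxic (edgeR adjusted p = 0.0190). The call in PBS versus Normoxic held in all 22 alternative settings, and that in Gel versus Normoxic was lost without any Normoxic library, Gel 2 or Gel 3 (edgeR adjusted p up to 0.104). Ppargc1a, the coactivator best known for switching on these genes, had 39.0, 34.7 and 34.2 CPM in Gel, 32.1, 35.1 and 25.9 CPM in PBS, and 37.8, 35.2 and 36.6 CPM in Normoxic, and was not called. Nrf1, which binds the core shown in the promoters above, and was likewise not called, had 54.9, 54.1 and 50.9 CPM in PBS against 45.8 to 49.2 CPM in Normoxic. Of 12 respiratory genes linked to HIF, Ndufa4l2 and Egln3, an oxygen-sensing hydroxylase, rose in PBS versus Normoxic, while Cox4i2, Ldha, Pdk1 and Slc2a1 were not called. The call of Egln3 was lost in 7 of 22 alternative settings, namely without any Normoxic library, with limma-voom, with both limma fits on FPKM and with PBS and Normoxic fitted alone (edgeR or limma adjusted p up to 0.125). Its level was 29.8 CPM in PBS 1 against 6.03 and 10.1 CPM in PBS 2 and 3.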

How the data were processed

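RNA was measured in 9 mouse retina libraries, grouped by their titles. The deposited counts are whole numbers per gene, and the deposited FPKM were made by the authors. The submitters' processing notes name the build GRCm39, Bowtie2, RSEM 1.3.1 and DESeq2 1.4.5 without their roles, so the counts could be rounded estimates from RSEM. Dividing counts by library total and 1 length per gene gives the FPKM (relative spread at most 2.89e-10), so FPKM served for length and levels.

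In R 4.3.3, filterByExpr of edgeR 4.0.16 (minimum count 10) kept 17362 genes, all 85 members included. The edgeR quasi-likelihood F test used all 9 libraries, TMM scaling and group as the only term, with Benjamini-Hochberg adjustment over all kept genes. SE is the size of the log2 fold change over the root of its F statistic. limma 3.58.1 and DESeq2 1.42.0 served as alternatives. The length trend was removed as a smooth offset (lowess span 0.3) on log gene length. The edgeR script was tested on simulated counts. Replicates of each group differed beyond sampling noise (chi-square per degree of freedom 7.68 to 117), so they were not copies of one another. Each counted as its own sample, although this cannot show that they are separate animals.

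The members and lists were chosen with earlier results of these data known. Genes named follow a rule: members called, the highest and lowest fold change and level of each complex, listed isoforms and core subunits, and the 2 smallest p of each other list. Those printed were picked from these after their values were seen, and some that the rule allows are not printed. Outside the rule, Ndufb4c, Ndufs6b, Kcnj8 and other genes were named to complete a small count or a family. The mural cell list, and the length trend removed without PBS 3, were added after seeing the data. A fit leaving out PBS 3 and Gel 1 together was also run and then set aside, because it picked libraries by the measured outcome; the closing section gives its counts. Coordinates are those of the RefSeq promoter table, whose build differs from that of the counts.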

Additional observations from a re-analysis of the deposited data

How the results depend on the processing

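The count of members called was 0 in every comparison and 1 at most under the alternatives, apart from 1 fit that was set aside. In PBS versus Normoxic 1 member was called higher with library totals only, no low count filter, DESeq2, the replicate block, the length trend removed (alone, with the block, or without PBS 3), without PBS 2 or without Gel 1 (Cox4i2 each time), and with limma on log2(FPKM + 1) (Cox6a2). Leaving out 1 library gave 0 to 1. In Gel versus Normoxic 1 (Atp5k, edgeR adjusted p = 0.0497) was called with the length trend removed and without PBS 3. The median log2 fold change turned to -0.063 without PBS 3 (range without 1 library -0.063 to 0.58) and -0.089 with the length trend also removed in PBS versus Normoxic, and in Gel versus PBS to 0.23 without PBS 3 (range -0.39 to 0.23), 0.14 with the length trend also removed and 0.0042 with the length trend removed and the replicate block. In Gel versus Normoxic the median ran from 0.050 to 0.34 without 1 library. The fit set aside left out PBS 3 and Gel 1 together and tested 84 members. It called 54 higher and 0 lower in Gel versus PBS (4.77% of all genes were called in either direction). In Gel versus Normoxic it called 63 higher and 0 lower (20.2% of all genes in either direction). These 2 libraries were picked by the members' own levels, so those counts are no evidence of a group difference, and nothing is drawn from them. Single genes that changed sign were, in PBS versus Normoxic, Cox4i1 (-0.13 without PBS 3, -0.15 with the length trend also removed, -0.13 to 0.61 without 1 library), Uqcrc1 (-0.11 and -0.12, -0.080 and -0.081 with the length trend removed without and with the block, -0.11 to 0.16 without 1 library), Cox6b2 (-0.038 and -0.072, -0.14 and -0.13, -0.038 to 0.36), Atp5d (-0.18 and -0.19, -0.087 and -0.089 with the length trend removed, -0.00314 and -0.00333 with limma on FPKM, and -0.18 to 0.13 without 1 library) and Sdha (-0.11 to 0.033 without 1 library). In Gel versus PBS they were Cox4i1 (0.31 without PBS 3, 0.22 with the length trend also removed, 0.014 and 0.026 with the length trend removed without and with the block, -0.43 to 0.31 without 1 library) and Atp5k (-0.21 to 0.62). The causes were not tested. Deviations of same-numbered libraries correlated at 0.33, -0.21 and 0.36 in Gel and PBS, -0.10 to -0.04 in Gel and Normoxic and -0.07 to -0.05 in PBS and Normoxic. Since not every pair was over 0.1, the numbers were not taken to pair samples, and the replicate block added the call of Cox4i2 (edgeR adjusted p = 0.0351) and no other member. With 3 libraries a group, members under 1 CPM rest on 2 to 88 counts per library.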
